A study of Mus musculus with 2 samples.

Results

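The distal miRNA cluster of the imprinted Dlk1-Dio3 locus was examined in microRNA-seq libraries of mouse adrenal gland. Its genes were all those that GENCODE M21 (mm10) annotates as miRNA on the plus strand of chromosome 12 with a start from 109700000 to 109760000. This rule, which uses position only, gave 39 of the 2202 miRNA genes in the count tables. There were 2 libraries in 1 group, with no second tissue, age, sex or treatment, made from total RNA of the adrenal gland of B6CASTF1/J females at an age of 36 days. B6CASTF1/J is a first-generation hybrid of C57BL/6J and the wild-derived CAST/EiJ strain. The labels call the libraries biological replicates and number the females apart, yet a single donor identifier stands on both. The SD between them, and every test of one against the other, may therefore not measure a spread between animals. Without a second group, the comparisons available were those between genes of the cluster, between the cluster and other miRNA genes, and between the libraries.

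Genes of this cluster are processed from a long noncoding transcript made from the maternal chromosome, in the same orientation as Meg3 and Rian, while Dlk1, Rtl1 and Dio3 are expressed from the paternal one. Each hairpin can give a mature miRNA from its 5p arm and one from its 3p arm, and the seed, bases 2 to 8 of the mature miRNA, largely sets which messages it pairs with. The cluster is found in placental mammals and is best known from brain, embryo and placenta, where Mir134, for example, has been studied in dendrites. The counts do not separate the arms of a hairpin, do not separate alleles, and in a bulk gland cannot tell fewer expressing cells from less RNA per cell.

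RefSeq (GRCm38.p6) held 71 mature sequences for 38 of the 39 genes, all but Gm27379, and these had 65 different seeds. For 5 genes (Mir376c, Mir487b, Mir539, Mir485 and Mir453) it held 1 sequence only, so a seed of the other arm was not counted. Only 6 seeds were held by more than 1 gene, each by 2, and 11 genes took part. These 12 mature miRNAs are shown with the seed in capitals, because the levels by seed below rest on them. The first pair share a 3p seed:
miR-379-3p: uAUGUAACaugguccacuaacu
miR-411-3p: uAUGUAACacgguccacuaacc
The others share a 5p seed, apart from miR-453, for which the table names no arm:
miR-379-5p: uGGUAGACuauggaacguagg
miR-1193-5p: uGGUAGACcggugacguaca
miR-376c-5p: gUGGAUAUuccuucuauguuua
miR-376b-5p: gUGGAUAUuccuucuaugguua
miR-494-5p: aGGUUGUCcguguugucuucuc
miR-410-5p: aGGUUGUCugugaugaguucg
miR-496a-5p: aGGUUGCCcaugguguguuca
miR-453: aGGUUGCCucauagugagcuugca
miR-1197-5p: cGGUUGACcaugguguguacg
miR-758-5p: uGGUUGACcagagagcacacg

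More often the seeds of the cluster were close without being identical. Among mature miRNAs of the same arm, 37 pairs of seeds differed at exactly 1 base. The 5p miRNAs of the 2 most abundant genes were such a pair, with G2A from miR-379-5p to miR-411-5p, where positions count from 1 at the 5′ end of the mature miRNA. Further pairs were miR-300-3p and miR-381-3p (G4A), miR-376b-3p and miR-376a-3p (A4G), and miR-485-3p and miR-154-3p (G2A). Their sequences follow with the seed in capitals, except miR-379-5p, which is printed above:
miR-411-5p: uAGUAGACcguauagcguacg
miR-300-3p: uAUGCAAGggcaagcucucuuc
miR-381-3p: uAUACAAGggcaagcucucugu
miR-376b-3p: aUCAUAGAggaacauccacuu
miR-376a-3p: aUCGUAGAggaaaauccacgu
miR-485-3p: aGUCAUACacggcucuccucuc
miR-154-3p: aAUCAUACacgguugaccuauu
The 4-base word GGUU, searched in bases 2 to 8 of the RNA as written, stood in 12 of 36 5p seeds (33.3%), against 16 of 661 5p seeds of miRNAs from other genes (2.42%). The 12 genes with it held 12.4% of the cluster's counts in replicate 1 and 12.6% in replicate 2. In the 3p seeds the commonest word was AUGU, in 6 of 34 (17.6%) against 11 of 675 elsewhere (1.63%). Both words were picked because they were the commonest, so these shares are descriptions.

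The annotation does not place the whole cluster inside Mirg, the noncoding gene it is named after. The hairpins span 38.9 kb, from 109709060 at the start of Mir379 to 109747960 at the end of Mir3072, with 556 bases between neighbours at the median and a range from 20 to 4368. The annotated Mirg gene (ENSMUSG00000097391.8, 109729764 to 109749460, plus strand) begins 20.7 kb after the start of Mir379. Of the 39 hairpins, 25 lie upstream of it. The other 14 lie within it, 4 wholly in an annotated exon, 5 partly in one and 5 in introns only.

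Replicate 1 held 13973580 reads, of which 5397603 were sense reads of miRNA genes, and replicate 2 held 7530945, of which 3029977 were. Levels are sense counts per 1000000 sense miRNA counts of the library (CPM), given as the value in each library or as mean ± SD with n = 2. Reads count once whatever their length, and the mature miRNAs of the cluster are 19 to 25 bases long. For a gene with no read, the upper limit (3 counts) was 0.556 CPM in replicate 1, against 0.990 CPM in the shallower replicate 2. This limit and the Wilson intervals take in counting error alone.

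The cluster was almost wholly present in the gland. At least 10 counts in both libraries were found for 33 of its 39 genes (84.6%), against 15.4% of all miRNA genes. Its genes held 131775 counts in replicate 1, or 2.44% of all sense miRNA counts with a 95% Wilson interval from 2.43 to 2.45%, and 68854 in replicate 2, or 2.27% with one from 2.26 to 2.29%. The mean was 2.36% ± 0.119 (SD, n = 2), and with multiply mapped reads added to the total it was 1.35%. The 20 miRNA genes of the plus strand in the 200 kb before the cluster, around Meg3, Rtl1 and Rian, held 1.79% and 1.67% with 16 genes detected. Mir127, which lies antisense to Rtl1, made up most of that at 11882 ± 175 CPM, followed by Mir431 at 1293 ± 40.3 and Mir433 at 1170 ± 153 CPM. Among detected genes, the median level was 136 CPM in the distal cluster, 178 CPM in the proximal genes and 130 CPM over all miRNA genes.

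The 3 genes that mark the cluster were its 3 most abundant. They were chosen with earlier results of these data known, so this is a description. Mir411 (ENSMUSG00000065477.3, 109710175 to 109710256, upstream of Mirg) stood at 5996 CPM in replicate 1 and at 5925 CPM in replicate 2, with 95% Wilson intervals of 5931 to 6061 and of 5840 to 6013. Mir379 (ENSMUSG00000065498.4, 109709060 to 109709125, upstream of Mirg) had 5911 CPM (5846 to 5976) and 4835 (4758 to 4914). Mir541 (ENSMUSG00000076052.1, 109742409 to 109742498, in a Mirg intron) had 3789 CPM (3737 to 3841) and 3233 (3169 to 3297). Both libraries gave the order Mir411, Mir379, Mir541. Counting intervals of Mir411 and Mir379 overlapped in replicate 1 and were apart in replicate 2, so their order was not separated in both. Together the 3 genes held 64.3% of the cluster's counts in replicate 1 and 61.6% in replicate 2. In the ranking of all miRNA genes by mean CPM, they stood at places 31, 33 and 41.

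Mir382 (ENSMUSG00000065428.4, 109733771 to 109733846, partly in a Mirg exon) came next in both libraries with 1915 and 2074 CPM. The following gene by mean, Mir376a, was at 854 ± 239 CPM. Mir376a had 685 and 1023 CPM, and Mir487b had 659 and 1044. Both were higher in replicate 2 and could not be ranked against each other or against Mir134, at 742 and 704 CPM. Mir409 had 749 CPM in replicate 1 and 560 in replicate 2. For Mir154, after which the miR-154 family of this cluster is named, the levels were 677 and 399 CPM, and for Mir299a they were 564 and 334. The 10 highest genes held 88.8% and 88.6% of the cluster's counts, and the remaining 23 detected genes held 11.2% and 11.4%, at means from 8.28 to 375 CPM.

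**Figure D1:**
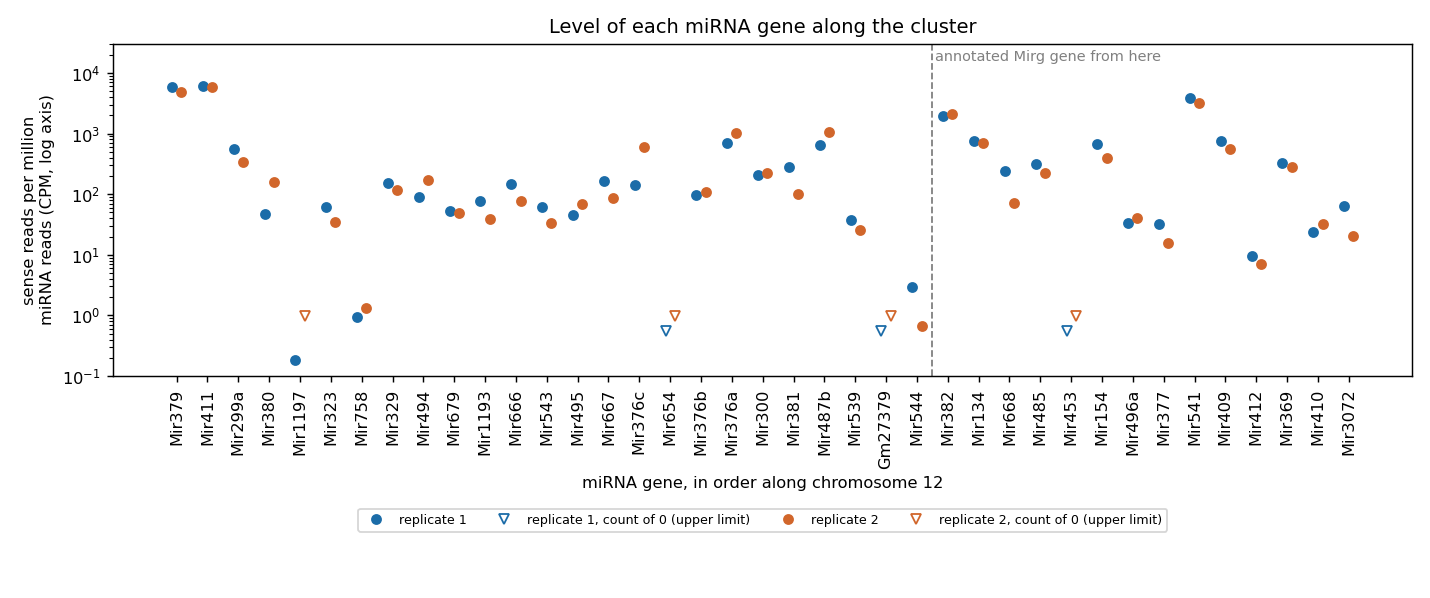
Level of each of the 39 genes in map order, as CPM on a log axis, with 1 point per library and open triangles at the upper limit of a count of 0. Mir379, Mir411 and Mir541 stand highest in both libraries, from 3233 to 5996 CPM, and the 6 genes without 10 counts in both libraries lie at the bottom.

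How far the order can be read depends on the distance between genes. The pooled spread between the libraries over all miRNA genes, edgeR's common dispersion, was a coefficient of variation of 41.6%. Means of 2 genes over 2 libraries with that spread would have to differ by 2.26-fold to stand apart. This limit takes in the spread between the libraries alone. A bias between sequences that both libraries share would not enter it. Of the 528 pairs that detected genes can form, 461 kept their order from one library to the other and 392 differed by more than this limit. Neighbours in the ranking were mostly not separated: 11 of 32 such pairs kept their order, and 2 exceeded the limit. These were the step from Mir382 down to Mir376a and that from Mir377 down to Mir412. Folds were set against the limit as the geometric mean of the folds in the 2 libraries, which was at most 2.74-fold among these neighbours. With DESeq2's larger dispersion the limit was 3.00-fold, and neither step exceeded it. The order of the 4 highest genes was the same in both libraries, and Mir412 was the lowest of the detected genes in both, with 9.63 and 6.93 CPM.

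The 6 genes below the detection minimum were spread over the map. Mir654, Mir453 and Gm27379 had a count of 0 in both libraries. Mir1197 had 1 count in replicate 1 and 0 in replicate 2. Mir758 had 5 and 4 counts, and Mir544 had 16 and 2. Of the 6, Mir453 lies inside annotated Mirg and the other 5 upstream of it.

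Levels showed little relation to position along the chromosome. Spearman's rho between mean CPM and distance from the start of Mir379 was -0.08 over the 39 genes, given as a description since the points share both libraries. The first 2 hairpins, Mir379 and Mir411, held 48.8% of the cluster's counts in replicate 1 and 47.4% in replicate 2. The 23 further hairpins upstream of annotated Mirg added 14.7% and 18.9%, with a median of 102 CPM per gene. Inside annotated Mirg, Mir541 and the 13 other hairpins together held 36.6% and 33.7%, and those 13 alone 20.3% ± 1.09 (SD, n = 2). Detection was found for 13 of the 14 hairpins inside the annotated gene and for 20 of the 25 upstream of it.

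**Figure D2:**
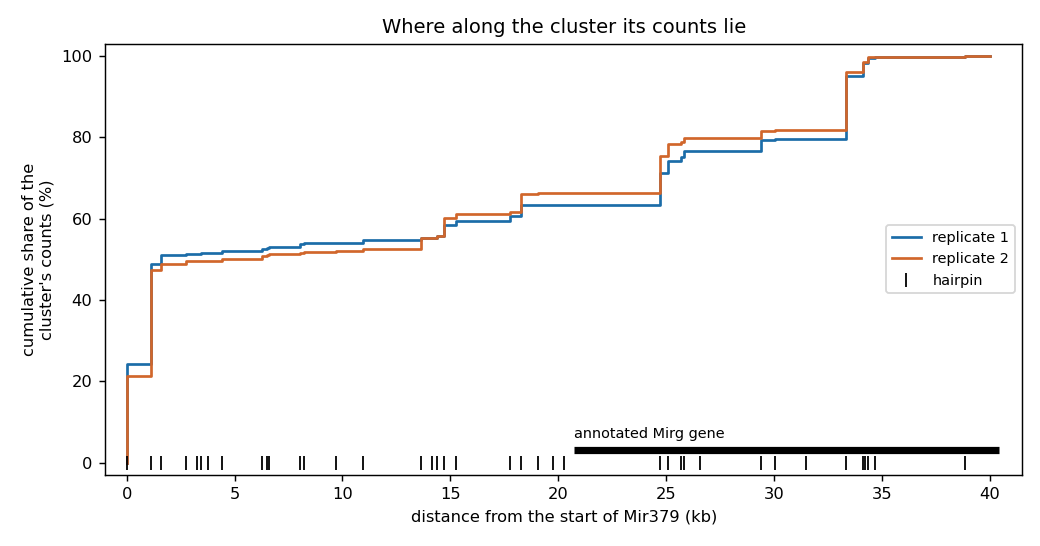
Cumulative share of the cluster's counts (%) against distance from the start of Mir379 (kb), with 1 line per library, a tick per hairpin and a bar for the annotated Mirg gene. The highest steps are at Mir379 and Mir411, at Mir382 and at Mir541, with smaller ones between them.

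Adjacent hairpins could differ by large factors. Of the 32 pairs of detected genes that follow each other on the chromosome, 25 kept their order in both and 20 differed by more than 2.26-fold, with a median of 2.82-fold. The sharpest contrast over a short distance was at Mir409, Mir412 and Mir369, which lie 52 and 49 bases apart. Mir409 was 77.8-fold above Mir412 in replicate 1 and 80.9-fold in replicate 2. Mir369, with 333 and 281 CPM, was 34.5-fold and 40.6-fold above Mir412. Mir541 was 118-fold and 208-fold above Mir377, the hairpin before it. Mir382 was 50.2-fold and 81.6-fold above Mir539, the last detected hairpin upstream of Mirg.

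Summed over genes that share a seed, the highest level was that of Mir379 and Mir411. This pair with the seed AUGUAAC on the 3p arm lies 1115 bases apart from start to start and held the 48.8% and 47.4% given above. That is an upper bound for this seed, because reads of the 5p arms are in the same counts. Mir379 with Mir1193, the pair with the 5p seed GGUAGAC, had 5988 and 4874 CPM, nearly all of it from Mir379. Mir1193 itself had 77.4 and 38.3 CPM. No miRNA from another locus in the RefSeq table had either seed.

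The genes of the other shared seeds had lower levels than Mir379 and Mir411. Mir376b and Mir376c, with the 5p seed UGGAUAU, had 242 CPM together in replicate 1 and 714 in replicate 2, most of the difference lying in Mir376c. Mir494 and Mir410 (GGUUGUC) had 115 and 201 CPM. Of the pair with GGUUGCC, Mir496a had 33.7 and 40.3 CPM and Mir453 had a count of 0. Neither Mir1197 nor Mir758 (GGUUGAC) reached the detection minimum. In addition, 11 of the 71 mature miRNAs had the seed of a miRNA from a gene outside the list. One was miR-299a-3p with miR-299b-3p, whose gene is annotated opposite Mir299a at the same place. Others were miR-329-3p with miR-362-3p, miR-410-3p with miR-344d-3p and miR-344e-3p, and miR-411-5p with miR-7229-5p.

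**Figure D3:**
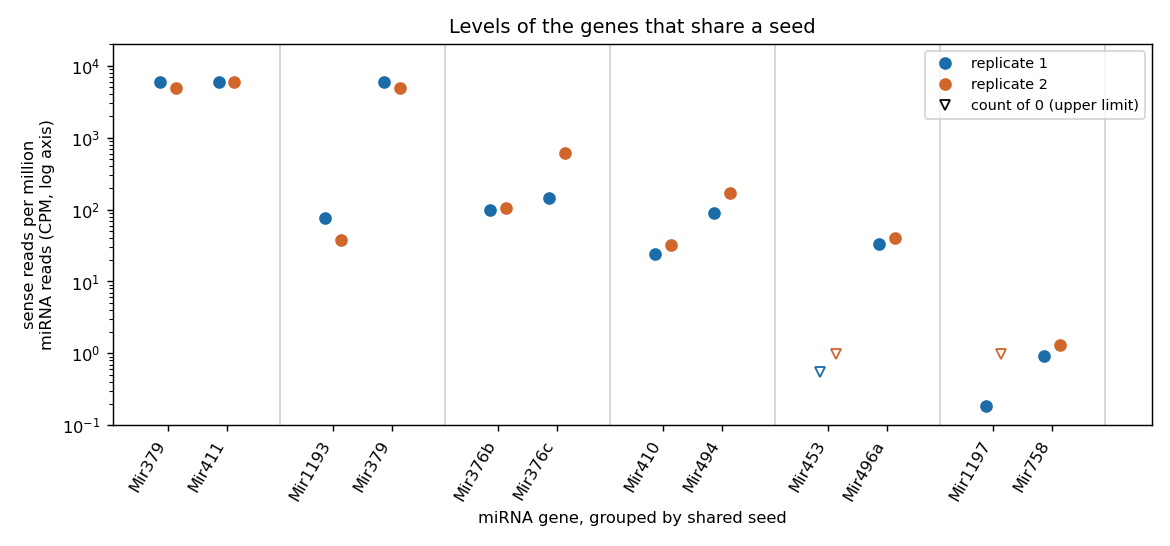
Levels (CPM, log axis) of the genes that share a seed, 1 point per library, in 6 pairs separated by vertical lines and ordered by their summed mean, with open triangles at the upper limit of a count of 0. Mir379 appears in the first pair by its 3p seed and in the second by its 5p seed, with a mean of 5373 CPM beside 57.9 CPM for Mir1193.

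Sequence shared between hairpins bears on which reads could be counted, since no gene's count includes a read placed at more than 1 locus. A stretch of at least 20 bases was shared with another miRNA locus by 5 genes: Mir411 with Mir758, and Mir376b with Mir376c and Mir487b. The stretch covered at most 12 bases of a mature sequence in Mir411 and at most 18 in Mir376b and Mir376c, and so no whole mature sequence of the table. The share of multiply mapped reads that came from these genes was not measured. Counting by strand changed more values. For 5 detected genes, Mir299a, Mir380, Mir376a, Mir539 and Mir409, a miRNA gene is annotated on the opposite strand, and each had a count of 0 in both libraries when strand was ignored. Their sense counts summed to 11245 in replicate 1 and 6362 in replicate 2. At the other 34 genes the counts with and without strand were identical, and the highest antisense count of any gene in the cluster was 2.

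The libraries were then compared gene by gene, each gene against the scaled library and not against the rest of the cluster. Ratios are replicate 1 over replicate 2 after TMM scaling, tested against counting error with an exact two-sided binomial test and Benjamini-Hochberg adjustment over all 434 genes with at least 10 counts in sum. The test compares these libraries, not conditions. Of the 34 genes of the cluster that could be tested, 27 were called (79.4%), against 58.5% of all genes tested. With at least 100 counts in sum it was 27 of 32 (84.4%) against 80.3%, so at comparable depth the share was near the background. Of the 27, 13 were higher in replicate 1 (background 30.2% of genes tested) and 14 in replicate 2 (28.3%). Scaling to total counts, which shifts all log2 ratios by 0.30, gave 19 and 7, against 189 and 83 of all 434 genes tested. Removing the trend with GC content gave 16 and 11 in the cluster, against 120 and 128 of the 434. The median log2 ratio was 0.03 in the cluster and 0.08 over all genes tested, and 27 of the 34 ratios were under 2-fold. When the pooled dispersion replaced counting error, edgeR's exact test called none of the 34 genes. It called 0 of all 434 genes (0.0%). That dispersion was estimated from the same 2 libraries taken as 1 group, so it already contains the differences under test. Few or no calls were therefore built in, and their absence does not show that the libraries are alike. An unadjusted p under 0.05 was found for 2 of the 34 genes and for 24 of the 434, so the share in the cluster was near the background. With DESeq2's larger dispersion 0 of the 34 and 0 of the 434 were called, and such a p was found for 0 and 7.

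The largest factors among called genes, those of Mir376c and Mir380, were higher in replicate 2. For Mir376c the level was 143 CPM in replicate 1 (Wilson limits 134 and 154) against 607 CPM in replicate 2 (580 and 636), or 5.22-fold after scaling. Mir380 had 46.7 CPM (41.3 to 52.8) and 156 (143 to 171), or 4.12-fold (exact binomial test, adjusted p = 7.79e-78). Those 2 were the ones with an unadjusted p under 0.05 under the edgeR dispersion, at 0.00903 and 0.0244, and adjusted p = 0.396 and 0.808 in edgeR's exact test. Mir494 had 91.0 and 169 CPM (2.29-fold), Mir487b followed at 1.95-fold, and Mir495 had 45.0 and 70.0 CPM (1.91-fold). Mir376a, the neighbour of Mir376b, was higher in replicate 2 by 1.84-fold, and Mir376b by 1.34-fold, by this scaling. The call for Mir376b did not hold with total counts (-0.12 on the log2 scale; exact test, adjusted p = 0.317) or without the GC trend (-0.02; adjusted p = 0.864).

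Genes called higher in replicate 1 reached 2.74-fold at most, against 5.22-fold in the other direction. Their median factor was nearly the same, 1.53-fold against 1.56-fold. These factors are by TMM, and total counts shift all log2 ratios by 0.30 toward replicate 1. Mir668 had 241 CPM (228 to 254) in replicate 1 and 71.3 (62.4 to 81.4) in replicate 2, or 2.74-fold (exact binomial test, adjusted p = 2.08e-52). Mir3072, the last hairpin, had 63.7 and 20.5 CPM (2.52-fold). Without the GC trend its log2 ratio fell from 1.33 to 0.68, and that of Mir376c went from -2.38 to -1.77. Mir381 had 280 and 100.3 CPM (2.27-fold), whereas Mir300, whose 3p seed differs from that of Mir381 by G4A, had 206 and 227. Mir377 (32.2 and 15.5 CPM) and Mir1193 were higher by 1.68-fold and 1.64-fold. The most abundant genes had small ratios, of which those of Mir411 and Mir541 were called at their depth. The log2 ratio was -0.01 for Mir379 (exact binomial test, adjusted p = 0.485), -0.07 for Mir541 and -0.28 for Mir411. Their sign turns with the scaling: with total counts they were 0.29, 0.23 and 0.02.

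**Figure D4:**
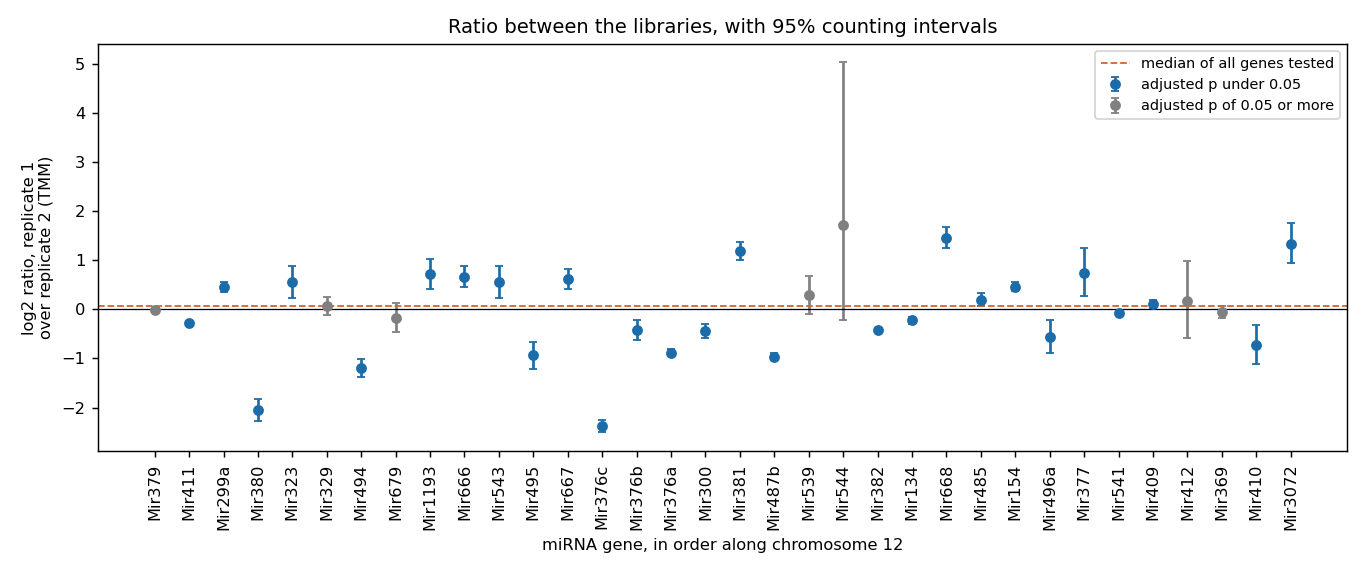
Log2 ratio of replicate 1 over replicate 2 after TMM scaling for the 34 genes tested, in map order, with 95% counting intervals, blue where called and grey where not, and a dashed line at the median of all genes tested. Mir376c and Mir380 lie lowest and adjacent hairpins often fall on opposite sides of 0. The highest point, Mir544, rests on 16 and 2 counts and was not called.

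Neighbours on the chromosome often differed in their ratio. Mir299a, with a log2 ratio of 0.45, is followed by Mir380 at -2.04 and, past the undetected Mir1197, by Mir323 at 0.56. Spearman's rho between ratio and distance was 0.15 over the 34 genes. The ratio was also set beside base composition. Across the 32 genes of the cluster with at least 100 counts in sum, Spearman's rho between log2 ratio and hairpin GC content was 0.50, and across 252 other miRNA genes it was 0.33. Both are descriptions over genes that share the libraries. Hairpins called higher in replicate 1 had a median GC content of 51.2% (13 genes), and those called higher in replicate 2 had 41.3% (14 genes). Mir376c has the lowest GC content of the cluster (29.1%; its 5p miRNA is printed above) and Mir3072 the highest (72.3%), here with the seed in capitals:
miR-3072-5p: aGGGACCCcgagggagggcagg
miR-3072-3p: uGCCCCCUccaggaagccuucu
The relation was loose: Mir381, below the cluster's median GC content of 43.6%, was high in replicate 1. Mir134, at 60.6%, was slightly higher in replicate 2 by TMM, with a log2 ratio of -0.23. Its direction depends on the scaling, since with total counts the log2 ratio was 0.077.

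**Figure D5:**
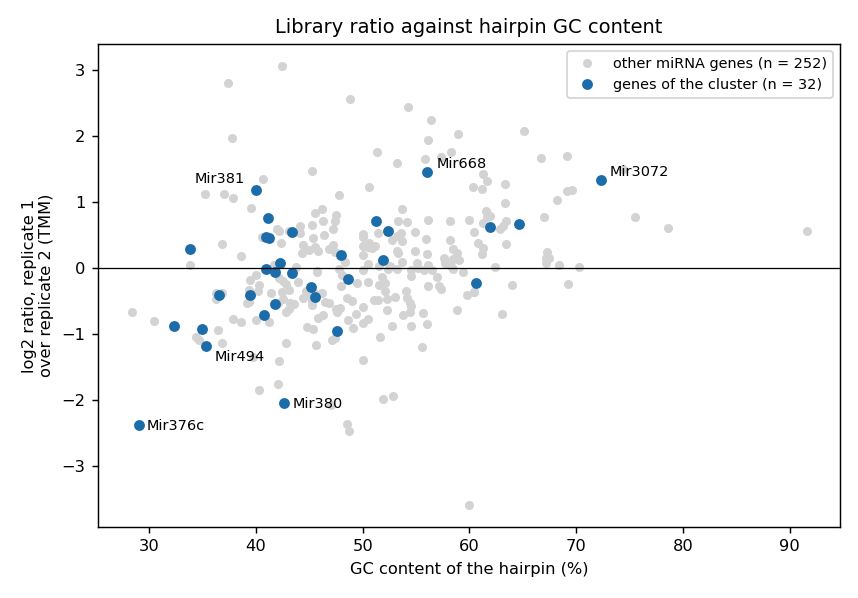
Log2 ratio of replicate 1 over replicate 2 (TMM) against hairpin GC content (%) for genes with at least 100 counts in sum, blue for the 32 genes of the cluster and grey for 252 other miRNA genes. The blue points rise from Mir376c at lower left to Mir3072 at upper right.

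Other measures moved between the libraries as well. Replicate 1 was the deeper by sense counts. Mir126a of endothelial cells had 133209 CPM in replicate 1 and 69285 in replicate 2. The smooth muscle and pericyte pair Mir143 and Mir145a summed to 30240 and 59237 CPM. Of the 3 neuroendocrine genes, Mir375 had 28922 and 22246 CPM, whereas Mir7b (2569 and 3010) and Mir137 (435 and 503) were higher in replicate 2. Red-cell genes (3 of 3 detected) summed to 1210 and 576 CPM. Mir122 of hepatocytes had 1503 and 146 CPM, Mir203 of epidermis 822 and 3691, and Mir206 of skeletal muscle 474 and 494, and none of these genes was at 0. Their part in the ratios of the cluster was not tested, and neither was that of GC content beyond the values above.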

How the data were processed

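Each deposited table holds raw read counts per miRNA gene, made by the authors with mm10 and annotation M21, per the deposited notes (aligner, counter and trimming: not given in the sources used here). The 3 count columns have no names and were read as counts without strand, sense and antisense, an inference from the values: each sums to the same total with the summary entries, the cluster's 5 genes with a gene on the other strand are at 0 in the first but not in the second, and the third holds almost none of the cluster's reads. Those entries were left out: multiply mapped reads were 28.5% and 30.6% of each library, unmapped 26.0% and 22.3%, and reads outside miRNA genes 6.88% and 6.86%. The cluster and its gene lists were chosen with earlier results of these data known.

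All genes of the cluster may be named, as they were chosen by position. Those with values in both libraries are the 10 highest, those sharing a seed and the 5 largest called ratios in each direction; Mir300, Mir369, Mir412 and Mir544 were added after their values were seen. TMM factors were first taken from all genes and then, after that result was seen, from genes whose counts in both libraries sum to 10 or more; the first version is given as an alternative. Ratios used a prior of 0.5 counts. The seed words and pairs of near seeds were also chosen after seeing the data. Genes below 10 counts in either library were not called detected. The step was tested on simulated data with known changes and counting noise alone. Those data lacked the pooled spread between the libraries, so they say nothing of calls under that spread. Tools were edgeR 4.0.16 and DESeq2 1.42.0 (R 4.3.3), scipy 1.17.1, statsmodels 0.14.6, pandas 2.3.3, numpy 2.4.6 and matplotlib 3.10.9. Alternatives were other scalings, count minimums, priors, strand, thinning of the deeper library, pooled dispersions, genes without shared 20-base stretches and leaving out each library.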

Additional observations from a re-analysis of the deposited data

How the results depend on the processing

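The cluster's share of 2.36% was 2.27 to 2.44% with either library left out, 2.68% without strand, 2.63% without the most abundant gene in the total and 1.63% without the genes that share 20 bases, among them Mir411. With multiply mapped reads added to the total it was 1.35%. That setting and the removal of the GC trend were chosen after seeing the data, as was the TMM version used throughout, which replaced factors from all genes. Of the 39 genes, 28 to 35 were detected under every minimum, strand and depth tried. The share of Mir411, Mir379 and Mir541 was 61.6 to 64.3% by library, 69.1% without strand and 54.5% without genes that share 20 bases. The correlation of level with distance was -0.107 and -0.023 by library, and was -0.17 over detected genes, -0.0095 without strand and -0.015 as Pearson's r.

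The 27 calls between the libraries became 22 to 29 under other scalings, minimums, strand, thinning and GC, and 0 with the pooled dispersion of edgeR or DESeq2. Those dispersions were estimated from the same 2 libraries, so this last setting cannot check the calls. The median log2 ratio of 0.03 became 0.33 with total counts, 0.16 with TMM factors from all genes (a shift of 0.13 in all ratios), 0.15 without the GC trend, 0.14 without genes that share 20 bases, -0.036 from 100 counts on and -0.0024 after thinning. Relative to all genes tested it was -0.045 with TMM, -0.040 with TMM factors from all genes, -0.039 with total counts and 0.15 without the GC trend. With total counts the log2 ratio turned positive for Mir379 (0.29), Mir411 (0.017), Mir679 (0.13), Mir134 (0.077), Mir541 (0.23) and Mir369 (0.24). It also did so for Mir379 with DESeq2 size factors (0.013), without strand (0.028), with TMM factors from all genes (0.12) and without the GC trend (0.25). For Mir541 it was 0.060 and 0.12, and for Mir369 0.073 and 0.18, under the last 2 of these. The cause was not tested. Leaving out a library gives no ratio. No paired analysis was possible because there is 1 group. Depth limits Mir412 and the 6 undetected genes most, since 1 count is 0.185 CPM in replicate 1 and 0.330 CPM in replicate 2.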
